A study of Mus musculus with 42 samples.

Results

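The livers of 6 mice given enzalutamide (ENZA) in the acute arm of the study were compared with the livers of 6 acute vehicle mice. These 12 libraries, of 42 in all, were chosen by their labels, and theirs is the only comparison here in which ENZA was given without added corticosterone. The study measured mRNA of snap-frozen livers of male C57B6/J mice to examine crosstalk between glucocorticoids and androgens. The acute groups received vehicle, corticosterone (CORT), ENZA or CORT+ENZA, and the chronic groups vehicle, CORT or CORT+ENZA, with 6 mice in each. The labels name no genetic change in these mice, and they state no dose, route, length of treatment or age. Each library carries the number of its own mouse. The gene p-values measure the spread between mice within groups, estimated in the acute arm over all 24 libraries together.

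Enzalutamide is an antiandrogen used against prostate cancer, and in people it is also known to induce drug-metabolizing enzymes. In liver, foreign compounds are sensed by the nuclear receptors PXR and CAR, which switch on cytochrome P450 enzymes, conjugating enzymes and transporters. Cholesterol is made from acetyl-CoA through mevalonate and squalene, under the transcription factor SREBP2, and is turned into bile acids by a further set of P450 enzymes.

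The 12 libraries held 19111290 to 20464521 gene counts and 19264 to 20153 detected genes. The liver label was met by hepatocyte markers, with the albumin gene Alb at 64480 to 112200 CPM (gene counts scaled by library size, with TMM factors) in vehicle and 63520 to 107800 CPM in ENZA mice. Fold changes are given on the log2 scale, ENZA over vehicle, with their SE, and every adjusted p of a gene is from edgeR's quasi-likelihood test with Benjamini-Hochberg adjustment over all genes tested. Vehicle mouse L19A stood apart on the second principal component of the acute arm, at -45.2 against -4.4 to 10.3 for the other vehicle mice. ENZA mouse L29A had more transcripts of several immune cell markers than the other ENZA mice, as described with the cell type markers.

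Of 13733 genes tested, 180 (1.31%) had an adjusted p under 0.05, with 116 higher (0.845%) and 64 lower (0.466%) in ENZA mice. The median size of the change among the 180 genes was 0.60 on the log2 scale. In 104 of them (57.8%) the ENZA and vehicle mice did not overlap, as in 226 of all genes tested (1.65%). The 180 genes were selected by a test on these same mice, so the larger share among them adds no support. The median log2 fold change of all genes tested was -0.0019. The count was 77, 91 and 101 without ENZA mouse L11A, L29A or L35A, and 114 and 112 without vehicle mouse L1A or L25A. It was 209 without L19A and L36A, a CORT+ENZA mouse that also stood apart. Members of the gene lists described here made up 46 of the 116 higher genes and 7 of the 64 lower genes. The lists hold 541 of the 13733 genes tested and were chosen with earlier results of these data known, so these counts carry no test.

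Of 21 genes of the path from acetyl-CoA to cholesterol, 13 rose in ENZA mice and the others did not pass the test. All 9 genes of the path to squalene had a log2 fold change above 0 and 6 passed the test, with a list median of 0.98. All 12 genes from squalene to cholesterol were above 0 and 7 passed, with a list median of 0.65. Both counts were the same without L29A, and without L19A and L36A they were 6 and 8.

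Hmgcs1, the gene of cytosolic HMG-CoA synthase, lay at 173 to 268 CPM in vehicle mice (median 192) and at 472 to 677 CPM in ENZA mice (median 556.5). Every ENZA mouse was above every vehicle mouse. Hmgcs1 rose by 1.41 ± 0.19 on the log2 scale (adjusted p = 0.000179).

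The mevalonate kinase gene Mvk lay at 22.8 to 29.9 CPM (median 24.5) in vehicle and 34.0 to 49.4 CPM (median 42.6) in ENZA mice. Mvd, the gene of the decarboxylase that forms isopentenyl diphosphate, lay at 12.8 to 27.15 CPM (median 19.3) and 34.3 to 58.6 CPM (median 46.9). The groups were separate in both genes, which rose by 0.75 ± 0.12 and 1.27 ± 0.22 (adjusted p = 0.00222 and 0.00349). Fdft1, the gene of squalene synthase, rose by 0.98 ± 0.11 (adjusted p = 6.28e-06). Acat2, an acetyl-CoA acetyltransferase gene at the start of the path, rose by 0.62 ± 0.11 (adjusted p = 0.00222). The values of Fdft1 and Acat2 are uncertain, since 10.9% and 45.9% of their 50-base stretches occur in another gene. Pmvk, Idi1 and Fdps, genes of the steps between mevalonate and farnesyl diphosphate, did not pass, with log2 fold changes of 0.68 ± 0.18, 1.01 ± 0.32 and 0.51 ± 0.33. Idi1 and Fdps have 21.3% and 11.7% of their stretches in another gene.

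Sqle, the gene of squalene epoxidase, lay at 46.9 to 125 CPM in vehicle (median 85.7) and 156 to 208 CPM in ENZA mice (median 184). Msmo1, the gene of a sterol methyl oxidase, lay at 143 to 222 CPM (median 200.1) and 396 to 501.5 CPM (median 430.0). Neither gene overlapped between the groups. Sqle rose by 1.12 ± 0.19 (adjusted p = 0.00222) and Msmo1 by 1.21 ± 0.14 (adjusted p = 1.62e-05). The other 5 that passed were Lss (lanosterol synthase, 0.96 ± 0.16), Cyp51 (lanosterol demethylase, 0.80 ± 0.14), Nsdhl (a sterol dehydrogenase, 0.62 ± 0.13), Hsd17b7 (a sterol ketoreductase, 1.04 ± 0.19) and Dhcr7 (a sterol reductase, 0.69 ± 0.12). Sc5d, Lbr, Tm7sf2 and Ebp did not pass, with log2 fold changes of 0.51, 0.45, 0.28 and 0.08.

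**Figure D1:**
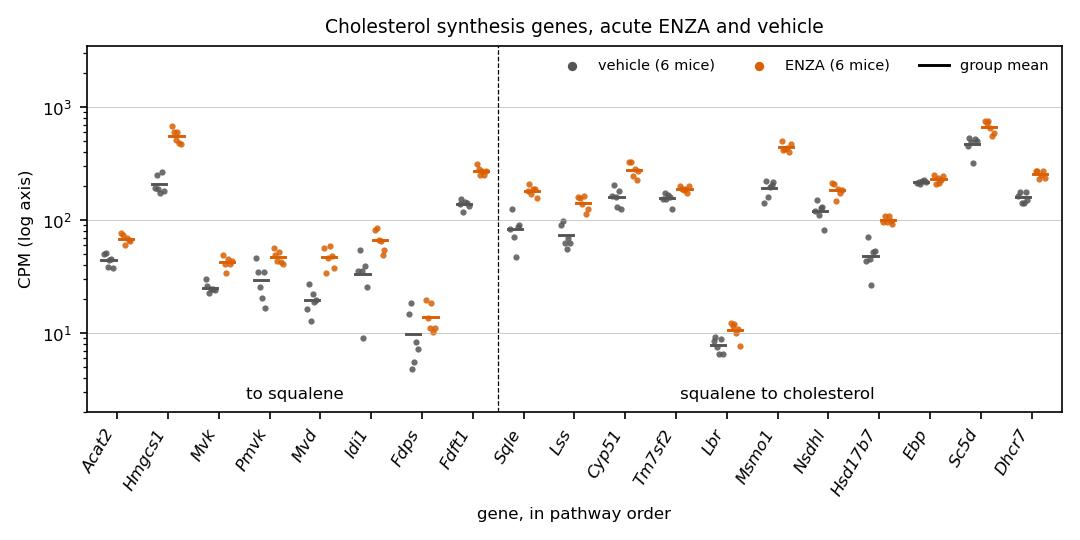
Level (CPM, log axis) of cholesterol synthesis genes in each vehicle and ENZA mouse, in pathway order, with bars at the group means and a dashed line at squalene. The ENZA mice of Hmgcs1, Msmo1 and Sqle lie wholly above the vehicle mice, while those of Ebp overlap them.

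The promoters of 4 of the genes that rose are shown because SREBP2 and its partner NF-Y are known to bind sterol genes in this region. Each runs from 250 bases before to 50 bases after the start of transcription and is taken from RefSeq on GRCm38.p6. Capitals mark matches to the sterol regulatory motif TCACNCCAC and to the NF-Y motif CCAAT, searched on both strands, so that ATTGG is CCAAT on the other strand. Hmgcs1 lies at chr13:119690101-119690400 (plus strand), Msmo1 at chr8:64733529-64733828 (minus strand), Mvk at chr5:114444019-114444318 (plus strand) and Cyp51 at chr5:4104648-4104947 (minus strand).
Hmgcs1: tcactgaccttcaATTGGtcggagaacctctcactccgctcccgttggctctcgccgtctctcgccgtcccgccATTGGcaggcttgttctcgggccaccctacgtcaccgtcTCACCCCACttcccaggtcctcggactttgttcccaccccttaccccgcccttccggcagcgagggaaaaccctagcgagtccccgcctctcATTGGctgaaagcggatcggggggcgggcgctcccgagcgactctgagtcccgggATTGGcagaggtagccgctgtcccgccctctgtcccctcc
Msmo1: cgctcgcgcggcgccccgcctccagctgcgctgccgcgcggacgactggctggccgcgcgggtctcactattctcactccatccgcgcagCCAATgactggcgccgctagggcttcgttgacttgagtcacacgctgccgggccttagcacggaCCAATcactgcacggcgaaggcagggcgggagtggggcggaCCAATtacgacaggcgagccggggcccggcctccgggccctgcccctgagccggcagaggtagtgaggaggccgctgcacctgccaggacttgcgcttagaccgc
Mvk: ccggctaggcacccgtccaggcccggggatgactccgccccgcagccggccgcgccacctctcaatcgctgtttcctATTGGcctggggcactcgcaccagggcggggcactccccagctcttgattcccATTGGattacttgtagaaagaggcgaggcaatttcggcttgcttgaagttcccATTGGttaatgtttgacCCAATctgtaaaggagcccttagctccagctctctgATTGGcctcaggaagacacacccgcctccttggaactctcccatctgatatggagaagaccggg
Cyp51: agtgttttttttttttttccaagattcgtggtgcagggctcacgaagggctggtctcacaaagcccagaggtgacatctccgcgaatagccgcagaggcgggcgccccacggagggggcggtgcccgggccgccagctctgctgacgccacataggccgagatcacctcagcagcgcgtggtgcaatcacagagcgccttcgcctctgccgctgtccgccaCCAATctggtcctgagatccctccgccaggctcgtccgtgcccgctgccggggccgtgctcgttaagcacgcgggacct

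The promoter of Hmgcs1 held 1 match to TCACNCCAC, from -137 to -129 relative to the start, and 4 to CCAAT. Those of Msmo1, Mvk and Cyp51 held 3, 5 and 1 matches to CCAAT and none to TCACNCCAC, and no match overlapped another. Of the 21 cholesterol synthesis genes 16 had a promoter in the table, of which 15 held CCAAT (93.8%) and 1 held TCACNCCAC (6.25%). In these shares a gene with several listed starts counts as holding a motif if any of them does. Among all 27025 genes with a promoter in the table, 41.1% held CCAAT and 1.44% held TCACNCCAC. Of the 116 higher genes 96 had a promoter, with CCAAT in 59.4% and TCACNCCAC in 3 (Hmgcs1, Cyp2b10 and Ehhadh). Of the 64 lower genes 43 had one, with CCAAT in 37.2% and TCACNCCAC in 1 (Ampd2). The repeats DR3, DR4 and ER6, to which PXR and CAR are known to bind, had no match in the 96 higher genes. Of all genes with a promoter 0.0444%, 0.0962% and 0.037% held one. At such rates 96 genes would be expected to hold none, so this absence says little. A match describes letters in this window only. Other forms of the sterol motif were not searched, so a promoter without TCACNCCAC may still hold one.

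Of the genes of SREBP regulation and sterol uptake, 1 of 14 passed (list median 0.27). It was Insig1, whose protein holds the SREBP complex in the endoplasmic reticulum, at 131 to 282 CPM in vehicle (median 192) and 346 to 525 CPM in ENZA mice (median 377). The groups did not overlap, and Insig1 rose by 1.03 ± 0.24 (adjusted p = 0.0309), a call lost without any 1 of 8 mice. Srebf2, the gene of SREBP2, was separate between the groups as well, at 62.9 to 83.5 and 89.9 to 107 CPM, but did not pass (0.39 ± 0.12, adjusted p = 0.100). With DESeq2 it passed (0.39, adjusted p = 0.0498). Over the 21 settings of the analysis 0 to 4 genes of the list passed. Srebf1, the related gene of fatty acid control, was at 0.51 ± 0.32 (adjusted p = 0.476). Of 10 LXR targets and sterol efflux genes 1 passed (list median -0.022), the phospholipid acyltransferase gene Lpcat3 (0.33 ± 0.079, lost without any 1 of 7 mice).

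Apart from the Cyp3a and Cyp2b genes, most tested members of each drug metabolism list did not pass the test, and those that passed were all higher in ENZA mice. PXR is encoded by Nr1i2, which lay at 60.7 to 71.9 CPM in vehicle (median 69.75) and 96.4 to 112 CPM in ENZA mice (median 103). The groups were separate, and Nr1i2 rose by 0.60 ± 0.075 (adjusted p = 3.88e-05), the 1 of 10 receptor and partner genes to pass (list median 0.022). Nr1i3, the gene of CAR, lay at 277 to 709.7 CPM in vehicle (median 332) and 200.2 to 435 CPM in ENZA mice (median 353). The highest vehicle value belonged to L19A and the next was 344 CPM. The log2 fold change of Nr1i3 was -0.16 ± 0.21 (adjusted p = 0.758) and 0.10 without L19A.

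Among cytochrome P450 genes, 3 of 13 tested Cyp2c genes passed (list median 0.36), 3 of 4 Cyp3a genes (median 1.15) and 1 of 2 Cyp2b genes (median 2.23). Low counts kept 2, 5 and 3 further members of these families out of the test. Cyp2c55, an inducible P450 gene, lay at 6.13 to 16.65 CPM in vehicle (median 9.60) and 37.5 to 78.5 CPM in ENZA mice (median 62.2). Cyp2c29 lay at 843 to 1466 CPM (median 1274) and 2821 to 4014 CPM (median 3191). Both genes were separate between the groups and rose by 2.55 ± 0.28 and 1.44 ± 0.14 (adjusted p = 1.21e-05 and 9.81e-07). The third was Cyp2c50 (0.60 ± 0.13, lost without any 1 of 3 mice), with overlapping groups and 16.6% of its stretches in another gene. The pseudogene Cyp2c53-ps, which overlaps Cyp2c29 on chromosome 19, had medians of 0.145 and 1.21 CPM and rose by 3.30 ± 0.38. The counts of both genes are uncertain because of this overlap. Cyp2c39 did not overlap either, at 1.68 to 2.98 and 3.02 to 5.80 CPM, but did not pass (0.82 ± 0.26, adjusted p = 0.1204, with 12.0% of its stretches in another gene).

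Cyp3a11, a classical PXR target, lay at 1808 to 5269 CPM in vehicle (median 3296) and 6515 to 10650 CPM in ENZA mice (median 7977), with no overlap. It rose by 1.30 ± 0.20 (adjusted p = 8e-04). Cyp3a59 and Cyp3a25 rose by 2.19 ± 0.31 and 0.99 ± 0.17, uncertain values because 28.0% and 26.8% of their stretches occur in another gene. Cyp3a13 did not pass (0.28 ± 0.14). Cyp2b10, the classical CAR target, lay at 1.725 to 22.5 CPM in vehicle (median 10.2) and 17.9 to 137 CPM in ENZA mice (median 57.55). All but 1 of the ENZA mice were above the vehicle range. Cyp2b10 rose by 2.699 ± 0.593 (adjusted p = 0.02705), a call lost without any 1 of 5 mice, among them L29A (2.38, adjusted p = 0.0638).

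P450 enzymes draw electrons from the reductase encoded by Por and carry haem made through Alas1. Por lay at 514 to 847 CPM in vehicle (median 599) and 813 to 1241 CPM in ENZA mice (median 994), with a small overlap. It rose by 0.66 ± 0.13 (adjusted p = 0.00774) and was the 1 of 14 genes of haem synthesis and electron transfer to pass (list median 0.064). Alas1, with medians of 493 and 805 CPM and overlapping groups, did not pass (0.74 ± 0.27, adjusted p = 0.194).

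Glutathione S-transferases, which attach glutathione to reactive compounds, had 6 of 21 genes higher (list median 0.26). The count was 3 without L29A and 3 without L11A. Gsta4 lay at 27.2 to 47.5 CPM in vehicle (median 35.5) and 50.85 to 88.1 CPM in ENZA mice (median 64.4), with no overlap, and rose by 0.87 ± 0.15 (adjusted p = 0.00349). Gstm3 lay at 62.1 to 105 CPM (median 97.1) and 207.5 to 1764 CPM (median 329). The highest value was that of L29A, and the next ENZA mouse had 369.8 CPM. Gstm3 rose by 2.63 ± 0.42 (adjusted p = 0.00222) and by 1.78 without L29A (adjusted p = 4.56e-05), with 28.8% of its stretches in another gene. Gstm1 (1.02 ± 0.24), Gstt3 (1.06 ± 0.23) and Gsta2 (1.23 ± 0.31) also passed. Without L29A these 3 were at 0.58, 0.85 and 0.82 and no longer did (adjusted p = 0.0576, 0.05825 and 0.114). Counting L29A, the calls of Gstm1, Gstt3 and Gsta2 were lost without any 1 of 6, 3 and 9 mice. Gstm1 and Gsta2 share 23.1% and 64.2% of their stretches with other genes. Gstm4 rose by 0.70 ± 0.16, and by 0.46 without L29A, a call lost without any 1 of 5 other mice.

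Nqo1, a quinone reductase gene, was the 1 of 13 NRF2 and AhR targets to pass (list median 0.16). It lay at 4.74 to 5.47 CPM in vehicle (median 4.77) and 5.65 to 25.75 CPM in ENZA mice (median 9.16), with no overlap and the highest value again from L29A. Nqo1 rose by 1.18 ± 0.26 (adjusted p = 0.0224) and by 0.75 without that mouse (adjusted p = 0.04185). Cyp1a2, an AhR target, was at 0.074 ± 0.13. The part of the immune cell markers of L29A in these values was not tested.

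Carboxylesterases cleave esters and amides, and 2 of 14 genes passed (list median 0.12). Ces2a lay at 309 to 379 CPM in vehicle (median 361) and 636 to 853.5 CPM in ENZA mice (median 729). It rose by 1.05 ± 0.084, with the smallest adjusted p of all genes (2.64e-08) and 22.2% of its stretches in another gene. Ces1d rose by 0.54 ± 0.10 (adjusted p = 0.00759), with uncertain counts because it overlaps the called gene Gm45909. Of the sulfotransferase list 1 of 9 genes passed (median 0.25). It was Papss2, whose enzyme makes the sulfate donor, at 143 to 206 CPM (median 183.5) and 277 to 341 CPM (median 319.6). The groups were separate, and Papss2 rose by 0.79 ± 0.11 (adjusted p = 0.000250). Its paralog Papss1 was separate too, at 7.87 to 9.615 and 11.4 to 12.8 CPM, but did not pass (0.38 ± 0.11, adjusted p = 0.0678).

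Among UDP-glucuronosyltransferases Ugt2b34 was the 1 of 19 to pass (0.48 ± 0.099, list median 0.21). Drug and bile salt transporters had 2 of 18 higher (median 0.16), the efflux pump genes Abcb1a and Abcc2. Abcb1a lay at 1.725 to 3.74 CPM in vehicle and 4.98 to 11.0 CPM in ENZA mice and rose by 1.56 ± 0.27 (adjusted p = 0.00264), with 17.0% of its stretches in another gene. Abcc2 rose by 0.47 ± 0.10, and was at 0.40 without L29A (adjusted p = 0.0558). The bile salt export pump gene Abcb11 and the uptake transporter gene Slco1a4 lay just outside the threshold (0.52 ± 0.14 and 1.03 ± 0.26, adjusted p = 0.0502 and 0.0506). Of 15 aldehyde, flavin and epoxide enzymes 3 passed (median 0.28). They were the epoxide hydrolase gene Ephx1 (0.58 ± 0.098), the flavin monooxygenase gene Fmo5 (0.77 ± 0.18) and the aldo-keto reductase gene Akr1b7 (2.26 ± 0.55). Without L29A only Ephx1 of these 3 passed (0.50). Counting L29A, the calls of Fmo5 and Akr1b7 were lost without any 1 of 5 and 8 mice.

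**Figure D2:**
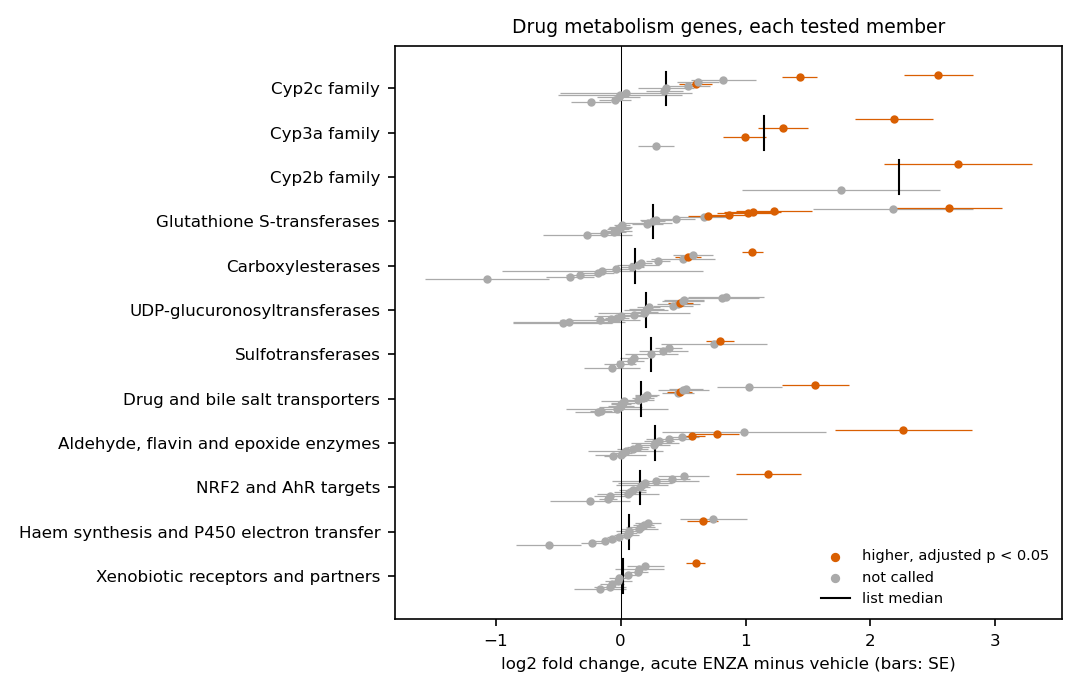
Log2 fold change of ENZA over vehicle (horizontal axis, with bars of 1 SE) for every tested member of 12 drug metabolism lists, genes that passed as higher in orange and list medians as black ticks. The largest values belong to Cyp2b10 (2.699), Gstm3 (2.63) and Cyp2c55 (2.55), and no member of these lists passed as lower.

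Bile acid genes went both ways, with 1 of 18 higher and 3 lower (list median 0.047). Cyp8b1, whose enzyme directs synthesis to cholic acid, lay at 475 to 859 CPM in vehicle (median 550.0) and 156 to 419.7 CPM in ENZA mice (median 279.9). The groups were separate, and the log2 fold change was -1.14 ± 0.26 (adjusted p = 0.0304). The call was lost without any 1 of 5 mice, among them L19A (-1.01, adjusted p = 0.0820) and L29A (-1.08, adjusted p = 0.0765). Akr1d1, a steroid reductase gene of bile acid synthesis, lay at 101 to 168 CPM (median 147) and 212 to 296 CPM (median 231). It was separate as well and rose by 0.76 ± 0.15 (adjusted p = 0.0114).

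Nr1h4, the gene of the bile acid receptor FXR, lay at 129.8 to 193.5 CPM in vehicle and 97.6 to 138 CPM in ENZA mice, with a small overlap. It fell, with a log2 fold change of -0.40 ± 0.096 (adjusted p = 0.0350; lost without any 1 of 8 mice). Hsd3b7, a steroid dehydrogenase gene of the pathway, was at -0.64 ± 0.15, with 70.5% of its stretches in another gene and a call lost without any 1 of 4 mice. The number of lower bile acid genes was 0 without L19A and L36A and 1 without L29A. Cyp7a1, the gene of the rate-limiting enzyme, lay at 142.5 to 395 CPM (median 264) and 157 to 308 CPM (median 219.8), overlapping ranges, and did not pass (-0.28 ± 0.29, adjusted p = 0.695). Nr0b2, the gene of the repressor SHP, did not pass either (0.83 ± 0.40, adjusted p = 0.346).

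Of the 64 lower genes 57 were in none of the gene lists. Foxa3, a hepatocyte transcription factor gene, lay at 51.5 to 89.8 CPM in vehicle (median 83.5) and 26.7 to 50.9 CPM in ENZA mice (median 45.8). Its log2 fold change was -0.85 ± 0.16 (adjusted p = 0.00711), and it was the 1 of 14 hepatocyte transcription factors to pass, with 13 of them below 0 (list median -0.19). Bmp1, a procollagen protease gene, lay at 146.5 to 195 CPM (median 168) and 99.5 to 141 CPM (median 120.3). St3gal4, a sialyltransferase gene, lay at 67.6 to 83.6 CPM (median 74.3) and 48.95 to 62.9 CPM (median 53.9). All 3 genes were separate between the groups and kept the call without any single mouse. The log2 fold change was -0.47 ± 0.075 for Bmp1 (adjusted p = 0.00135) and -0.44 ± 0.086 for St3gal4 (adjusted p = 0.00884).

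Xbp1, a transcription factor gene of the unfolded protein response, lay at 267 to 410.4 CPM in vehicle and 229.9 to 256 CPM in ENZA mice, with no overlap. It fell, with a log2 fold change of -0.50 ± 0.12 (adjusted p = 0.0304; lost without any 1 of 8 mice), the 1 of 14 genes of that response to pass (list median -0.091). The BMP antagonist gene Chrd (-0.61 ± 0.14), the Nogo receptor-like gene Rtn4rl1 (-0.75 ± 0.18), the tetraspanin gene Tspan33 (-0.60 ± 0.15) and the endonuclease subunit gene Eme2 (-0.62 ± 0.16, 24.5% shared) fell as well. Each of these 4 lost the call in 6 to 11 of the 12 fits that left out 1 mouse. The antisense RNA Tbx3os1, uncertain because the strand setting of the counting is not known, fell (-1.09 ± 0.21, adjusted p = 0.00947) and was at -0.76 without L19A, where it still passed.

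Male-biased liver genes, many of which depend on growth hormone or androgen, had 1 of 24 lower, with 19 of them below 0 (list median -0.21). It was Hsd3b5, a steroid dehydrogenase gene of male liver, at 120.3 to 248.6 CPM in vehicle (median 179) and 27.2 to 96.9 CPM in ENZA mice (median 68.2). The groups did not overlap, and the log2 fold change was -1.41 ± 0.30 (adjusted p = 0.0212), with 21.2% of its stretches in another gene. Without L11A the call of Hsd3b5 was lost. The male-biased genes Mup3, Mup20, Cyp2d9, Cyp4a12a and Slco1a1 did not pass, with log2 fold changes of -0.11, -0.18, -0.11, -0.066 and -0.18, each closer to 0 than the list median. Of these, Mup3, Mup20, Cyp2d9 and Cyp4a12a are uncertain, with 15.6% to 50.5% of their stretches in another gene. None of the 15 measured of 24 female-biased genes (median 0.13) or of 20 steroid receptor and steroid metabolism genes (median 0.041) passed.

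**Figure D3:**
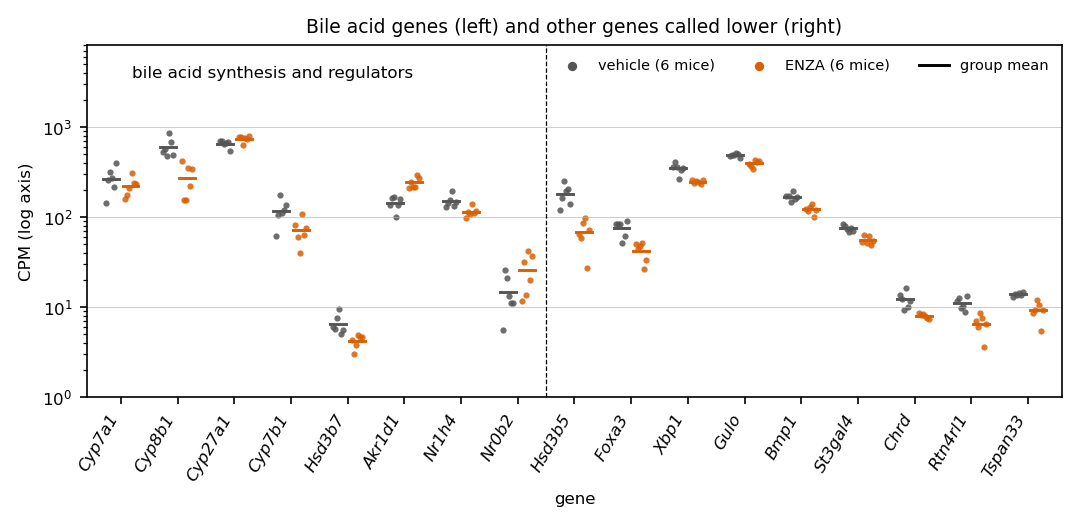
Level (CPM, log axis) in each vehicle and ENZA mouse of 8 bile acid genes (left) and of 9 other genes that fell (right), with bars at the group means. Cyp8b1, Hsd3b5 and Foxa3 are separate and lower in ENZA mice and Akr1d1 is separate and higher, while Cyp7a1 and Nr0b2 overlap.

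Fatty acid synthesis and oxidation were read in gene lists that do not hold every lipid gene. Called lipid genes outside both lists included Lpin2 (0.58) and Lipg (0.77), which were higher, and Dgkz (-0.34), which was lower. Their calls were lost in 9, 10 and 8 of the 12 fits that left out 1 mouse. Thrsp, a regulator of lipid synthesis, lay at 204 to 581 CPM in vehicle (median 392) and 677 to 1583 CPM in ENZA mice (median 976), with no overlap. It rose by 1.32 ± 0.31 (adjusted p = 0.0350; lost without any 1 of 8 mice), the 1 of 20 genes of fatty acid synthesis to pass (list median 0.42). Fasn, the fatty acid synthase gene, did not (0.85 ± 0.29, adjusted p = 0.163). Of 26 PPAR-alpha targets and fatty acid oxidation genes 1 passed (median 0.054), the peroxisomal enzyme gene Ehhadh (0.55 ± 0.13, lost without any 1 of 8 mice).

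Glucocorticoid-induced genes had 1 of 24 higher (list median 0.011). It was Gadd45b, a stress response gene, with medians of 1.175 and 3.17 CPM and overlapping groups (1.47 ± 0.36, lost without any 1 of 7 mice). Over the 21 settings of the analysis 0 to 2 genes of this list passed as higher and 0 to 3 as lower. The list median ranged from -0.177 to 0.112. Fkbp5, a cochaperone gene of steroid receptors, lay at 32.7 to 149 CPM in vehicle and 52.3 to 93.3 CPM in ENZA mice and did not pass (-0.26 ± 0.24, adjusted p = 0.652). The log2 fold changes of Tsc22d3 (GILZ), of the glucocorticoid receptor gene Nr3c1 and of Hsd11b1, whose enzyme regenerates active glucocorticoid, were 0.29 ± 0.17, 0.22 ± 0.12 and 0.11 ± 0.086, and none passed. The metallothionein genes Mt1 and Mt2 had medians of 146 and 131 CPM in vehicle and 46.8 and 40.2 CPM in ENZA mice and did not pass (-1.89 ± 0.48 and -1.76 ± 0.54, adjusted p = 0.0555 and 0.118). Of 20 clock genes the deubiquitinase gene Usp2 was the 1 to pass (0.67 ± 0.15, lost without any 1 of 7 mice, list median 0.053). None of 20 genes of gluconeogenesis and amino acid catabolism did (median 0.15).

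Immune and stress lists held few called genes. Ddx58, the gene of the RNA sensor RIG-I, was the 1 of 20 interferon-stimulated genes to pass (0.38 ± 0.078, adjusted p = 0.01295). The list median was 0.34, and 0.19 without L29A. None of 10 NF-kappaB and chemokine genes (median -0.20), 20 acute phase genes (median -0.41) or 16 proliferation genes (median 0.27) passed. The acute phase gene Saa1 varied widely among vehicle mice, at 16.2 to 1443 CPM against 11.5 to 95.8 CPM in ENZA mice, and 32.1% of its stretches occur in another gene.

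Of the cell type markers 1 was called. Gulo, one of 12 pericentral hepatocyte genes (list median -0.25), encodes the last enzyme of vitamin C synthesis and had a log2 fold change of -0.31 ± 0.067 (adjusted p = 0.02065; lost without L11A). No marker passed among 7 of hepatocytes in general (median -0.28), 11 periportal (0.12), 11 Kupffer cell (0.26), 3 T and NK cell (0.43), 7 B cell (0.005) and 1 neutrophil genes (-0.088). None passed among 8 sinusoidal endothelial (median -0.15), 9 stellate cell (-0.056), 5 cholangiocyte (-0.35) and 5 erythroid genes (-0.92). The median of the Kupffer cell markers was -0.17 without L29A. In bulk tissue fewer cells of a type and less RNA per cell cannot be told apart.

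Summed over the list, Kupffer cell markers lay at 264 to 371 CPM in vehicle and 230.5 to 875 CPM in ENZA mice. B cell markers lay at 63.0 to 101.5 and 45.6 to 492 CPM. The highest ENZA value of both sums was that of L29A, where the other ENZA mice were at most 360.5 and 74.4 CPM. Most of its B cell sum was Cd74 (462 CPM), an antigen presentation gene that macrophages express too. Pericentral markers lay at 8092 to 11220 and 6550 to 10090 CPM, and erythroid markers at 129 to 456 and 129.7 to 331 CPM, with overlap. None of the 11 sums passed a two-sided exact permutation test of 6 against 6 mice, with adjusted p from 0.5 to 0.929, where the smallest p that this design allows is 0.002165. No marker was at 0 in all 12 libraries.

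The share of counts from the mitochondrial genome was higher in ENZA mice, at 8.63 to 10.9% (median 9.64) against 6.47 to 8.72% in vehicle mice (median 7.76). The ranges overlapped slightly. The difference was 1.79 percentage points (two-sided exact permutation test, n = 6 per group, p = 0.00433, adjusted p = 0.0303 over 7 shares). The adjusted p rose above 0.05 without ENZA mouse L17A or vehicle mouse L1A, L7A, L25A or L31A. None of the 13 mitochondrially encoded protein genes passed (median 0.30). The cytochrome oxidase gene mt-Co1 lay at 21780 to 33500 CPM in vehicle and 31520 to 39170 CPM in ENZA mice (0.37 ± 0.11, adjusted p = 0.0940), with 51.1% of its stretches also in a nuclear copy. The part of this share in the other results was not tested.

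**Figure D4:**
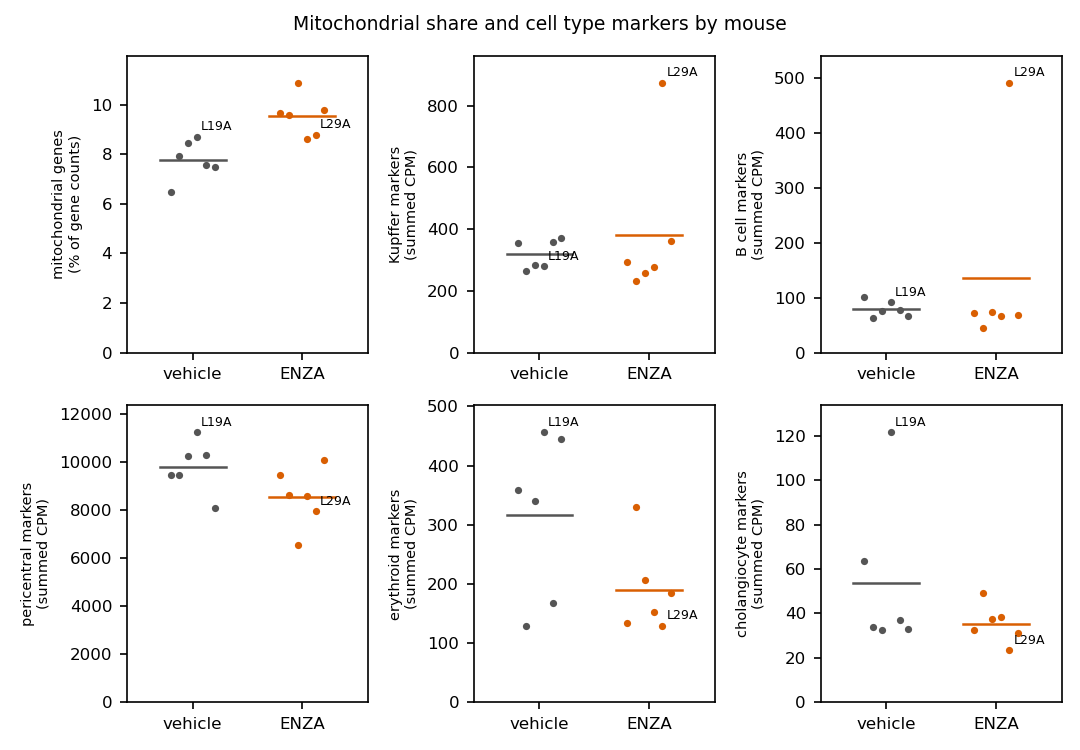
Share of mitochondrial counts (percent) and summed CPM of 5 marker lists in each vehicle and ENZA mouse, with mice L19A and L29A named. L29A stands alone in the Kupffer cell (875 CPM) and B cell (492 CPM) panels, and L19A in the cholangiocyte panel (121.5 CPM).

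The genes called with ENZA alone were then read in mice that received ENZA on top of CORT, which share no library with the comparison of ENZA with vehicle. In the acute arm 24 genes (0.175%) differed between CORT+ENZA and CORT, 23 higher (0.167%) and 1 lower (0.00728%). Of the 116 genes higher with ENZA alone, 115 (99.1%) were above 0 there, against 49% of all genes, and Gtf2a1 was the exception. The test was passed by 20 of them, which is 17.2% of the 116 and 87.0% of the 23. Of the 64 lower genes 60 (93.8%) were below 0, against 51% of all genes, and 0 passed. The median log2 fold change of the higher genes was 0.63 with ENZA alone and 0.34 on top of CORT, and that of the lower genes was -0.55 and -0.18. Since the genes were selected in the comparison of ENZA with vehicle, these medians are no test of a weaker effect. Tested directly, the ENZA effects without and with CORT differed for 0 of 13733 genes (0%) in edgeR, DESeq2 and limma-voom.

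Cyp2c29 lay at 1022 to 1500 CPM in CORT and 2510 to 4122 CPM in CORT+ENZA mice, again with no overlap, and rose by 1.30 ± 0.14. Nr1i2 lay at 79.25 to 105 and 102 to 130.1 CPM and rose by 0.44 ± 0.075 (adjusted p = 0.00597), here with overlap. Sqle, at 73.1 to 121.5 and 89.1 to 196.5 CPM, did not pass on top of CORT (0.62 ± 0.19, adjusted p = 0.374). Neither did Cyp8b1, at 355 to 795 and 201 to 391 CPM (-0.98 ± 0.26, adjusted p = 0.230). The difference between the effect alone and on top of CORT was 0.49 ± 0.26 for Sqle and -0.15 ± 0.37 for Cyp8b1, neither of which passed (adjusted p = 0.9935 for Sqle).

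In the chronic arm CORT+ENZA and CORT were compared in a separate table, from livers extracted with another kit, where 1552 of 13099 genes differed (11.8%), 916 higher (6.99%) and 636 lower (4.86%). Of the 116 genes higher with acute ENZA, 107 (92.2%) were above 0 and 63 passed as higher, which is 54.3% of the 116 and 6.88% of the 916. Of the 61 lower genes measured there, 53 (86.9%) were below 0 and 18 passed as lower, which is 29.5% of the 61 and 2.83% of the 636. No gene of either set passed in the opposite direction. The log2 fold change was 5.58 ± 0.29 for Cyp2c55, 4.36 ± 0.38 for Gstm3, 3.24 ± 0.27 for Cyp3a11 and 2.03 ± 0.12 for Ces2a, beside 2.55, 2.63, 1.30 and 1.05 with acute ENZA alone. On top of acute CORT these genes were at 2.21 ± 0.28, 1.49 ± 0.41, 1.18 ± 0.20 and 0.71 ± 0.084, and of these Gstm3 did not pass there (adjusted p = 0.267). Cyp8b1 was at -2.98 ± 0.65 (adjusted p = 0.00643) and Bmp1 at -0.64 ± 0.063 (adjusted p = 2.235e-06). Several genes called with acute ENZA did not pass in the chronic arm, among them Foxa3 (-0.23 ± 0.18), Hsd3b5 (-0.31 ± 0.46), Thrsp (0.36 ± 0.34), Insig1 (0.39 ± 0.22) and Nr1i2 (0.38 ± 0.17). The acute and chronic comparisons of CORT+ENZA with CORT both hold added CORT and differ in the length of treatment and the extraction kit, which cannot be told apart, and the sizes are set side by side without a test.

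**Figure D5:**
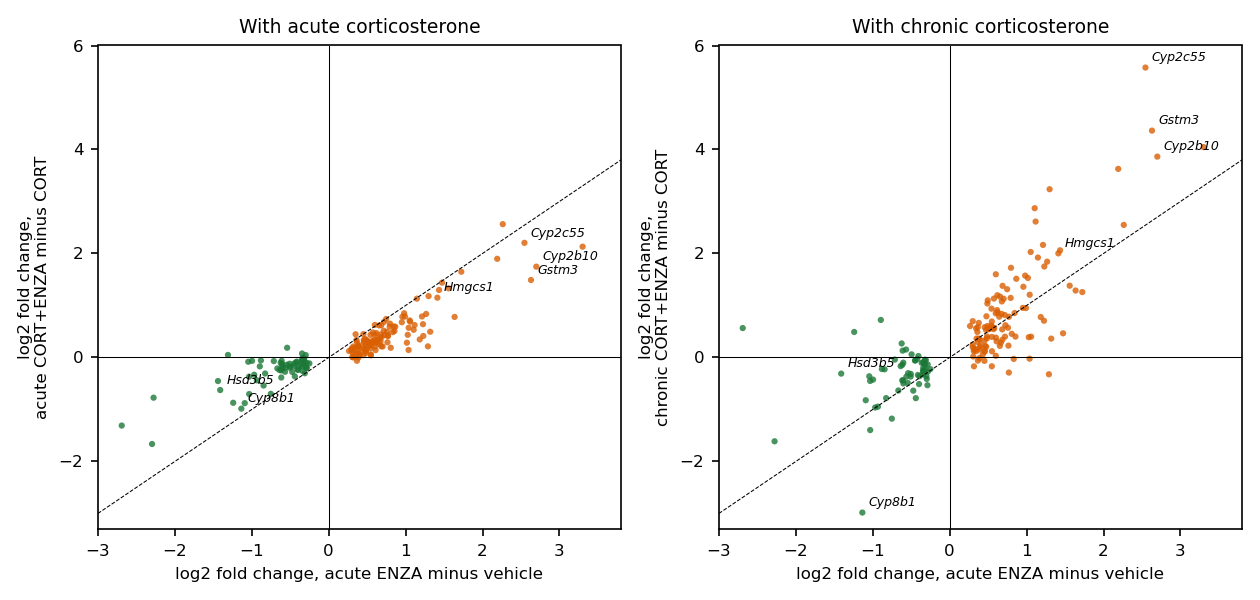
Log2 fold change of the 180 genes called with acute ENZA alone (horizontal axis) against their log2 fold change when ENZA was added to acute CORT (left) or chronic CORT (right), with equal values on the dashed line. With acute CORT 115 of 116 higher and 60 of 64 lower genes keep their side of 0, and with chronic CORT Cyp2c55 (5.58 ± 0.29) and Cyp8b1 (-2.98 ± 0.65) lie beyond the line.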

How the data were processed

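Liver mRNA was sequenced from stranded libraries as 100 bp paired-end reads, per the labels. The authors deposited whole-number read counts per gene, not normalized, in a table for each arm; STAR 2.7.3a, HTSeq 0.12.4, FastQC, MultiQC and the mouse build mm10 are named in the submitters' processing notes. Which annotation release and strand setting the counting used is not given in the sources used here. Overlapping and antisense genes are therefore uncertain. Summary lines of the counting program entered neither library sizes nor tests and were used as shares. Columns were matched to mice by label, and no value column was left unmapped.

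The 24 acute libraries were fitted together with edgeR 4.0.16 in R 4.3.3 (quasi-likelihood test, robust, TMM, filterByExpr with a minimum count of 10 and a minimum total of 15, group means). Contrasts were ENZA minus vehicle, CORT+ENZA minus CORT and their difference. The 18 chronic libraries were fitted alone. Genes were called at a Benjamini-Hochberg adjusted p under 0.05. The SE is the log2 fold change divided by the square root of F. Shares and marker sums were compared with two-sided exact permutation tests. Replicates within a group correlated at 0.965 to 0.989 and differed by more than counting noise (chi-square per degree of freedom of 14.2 or more). The test was checked on simulated data.

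The 43 gene lists (589 genes, 541 tested) and the members were chosen with earlier results of these data known; list counts and medians carry no test. Genes were named by a rule: called, at least 5 CPM in the higher group, no overlap, the 12 largest changes in each direction and up to 4 per list, plus fixed genes of drug, sterol and steroid biology. Other genes were named after their values were seen, and a few genes of the rule are not reported here. A gene is called uncertain where at least 10% of its 50-base transcript stretches occur in another gene of GENCODE M21. Promoters came from RefSeq. Alternatives were DESeq2 1.42.0, limma-voom with limma 3.58.1, other scaling, filters and library sets, and leaving out each mouse.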

Additional observations from a re-analysis of the deposited data

Results flagged for a closer look

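Each of 150 sets of 6 values (named genes, shares and marker sums in each group) was examined for a highest or lowest mouse whose gap to the nearest other, over the whole range, exceeded Dixon's critical value. Among independent sets of normally distributed values, chance gives about 1 such set in 20. Here 14 were found, but the sets share mice and that shape was not checked. The number is therefore not compared with chance. In ENZA mouse L29A, Gstm3 was at 1764 CPM (other ENZA mice 207.5 to 369.8), Abcc2 at 928.7 CPM (677.7 to 765.3) and Nqo1 at 25.75 CPM (5.65 to 9.65). The same mouse had summed markers of 875 CPM for Kupffer cells (230.5 to 360.5), 492 CPM for B cells (45.6 to 74.4), 12.2 CPM for neutrophils (2.89 to 4.39) and 11.1 CPM for T and NK cells (1.86 to 5.06). In vehicle mouse L19A, Nr1i3 was at 709.7 CPM (other vehicle mice 277.2 to 344), Tbx3os1 at 28.6 CPM (10.1 to 13.2), Ehhadh at 167.3 CPM (276.6 to 329.2) and Nr3c1 at 39.0 CPM (63.0 to 75.4). That mouse also had cholangiocyte markers at 121.5 CPM (32.6 to 63.7) and 6.25% of its reads in no annotated feature (5.06 to 5.33%). In ENZA mouse L11A the haemoglobin share of counts was 0.0229% (0.00375 to 0.00961%). Of the 180 called genes 96 lost the call without L29A and 55 without L19A. Leaving out other mice cost calls too, and the fewest genes, 77, were called without L11A.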

How the results depend on the processing

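The 180 genes called for ENZA against vehicle (116 higher, 64 lower) became 388 with DESeq2 (240 and 148), 289 with limma-voom (181 and 108), 90 with no low-count filter (69 and 21) and 94 in a fit of only the 12 compared libraries (74 and 20). Leaving out 1 mouse gave 77 to 156 genes, 63 to 109 higher and 14 to 53 lower; the lowest counts came without ENZA mouse L11A. Other scaling (185), a stricter filter (207) and leaving out L19A and L36A (209) stayed within 1.5 times. Called in all 21 settings were 53 genes, 48 higher and 5 lower, and 61 genes kept the call without any single mouse. Of 48 called genes named by the rule 28 kept the call under all 20 alternatives and 0 changed direction. The 24 genes for CORT+ENZA against CORT numbered 39 once L19A and L36A were dropped, 59 by DESeq2 and 52 by limma-voom; the cause was not tested. The difference of effects stayed at 0 genes under each of these 3. Nr1i3, not called, turned from -0.16 to 0.056 with limma-voom and to 0.10 without L19A, with or without L36A; leaving out any 1 mouse gave -0.242 to 0.103. The mitochondrial share differed by 1.53 to 1.98 percentage points without any 1 mouse. Consecutive mouse numbers form 6 sets, each holding 1 mouse per acute group. The labels state no pairing, and these sets were not treated as pairs. Same-set deviations correlated at -0.079 to 0.144 (mean 0.0231, against -0.0049 for other pairs), and 4 of 12 mice correlated best with their own set. With the set as a block 191 genes were called (126 and 65), 156 of the 180 among them. Of the called genes named by the rule, Insig1 and Thrsp did not pass in that fit. Of the 589 list genes 541 had enough counts to be tested at this depth.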

Other observations

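Called genes outside the lists, chosen here after their values were seen, included further enzymes. Erg28, a scaffold gene of sterol synthesis, lay at 50.5 to 67.1 CPM in vehicle (median 60.1) and 77.7 to 100.4 CPM in ENZA mice (median 83.6), with no overlap, and rose by 0.51 ± 0.083 (adjusted p = 0.00151). The retinol dehydrogenase gene Rdh11 rose by 0.68 ± 0.14, the GABA and taurine transporter gene Slc6a13 by 0.46 ± 0.078, the kinase gene Map3k13 by 0.95 ± 0.16 and Aspa, the aspartoacylase gene, by 0.68 ± 0.13, each with separate groups. Mfsd2a, the gene of a lysolipid transporter, rose by 1.29 ± 0.28 with ENZA alone, from a median of 15.0 to 41.5 CPM with overlapping groups. CORT and CORT+ENZA mice had medians of 41.3 and 53.9 CPM for this gene, and its difference of effects of 1.08 ± 0.39 did not pass (adjusted p = 0.9935). Among lower genes were the aminoacyl-tRNA synthetase genes Cars (-0.51 ± 0.11) and Yars (-0.30 ± 0.07) and the cytolinker gene Plec (-0.36 ± 0.079). The calls of Mfsd2a, Cars, Yars and Plec were lost in 4, 3, 6 and 2 of the 12 fits that left out 1 mouse.

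Some called genes lay close to each other. Within 50000 bases there were 16 pairs of called genes, 14 of them changed in the same direction. Uncalled genes can lie between them, and the rates among all tested genes were not measured. Some pairs overlap, among them Ces1d and Gm45909, Cyp2c53-ps and Cyp2c29, and Spsb3 and Eme2, so their counts are uncertain. Gstm1 pairs with Gstm3 and Gstm4 of its own family. Mmab, an adenosyltransferase gene of vitamin B12 metabolism, starts 208 bases from Mvk and runs the other way, so that its start lies inside the Mvk promoter printed in the report. Mmab lay at 25.4 to 38 CPM in vehicle (median 27.85) and 40.5 to 48.9 CPM in ENZA mice (median 45.0), with no overlap, and rose by 0.60 ± 0.12 (adjusted p = 0.00848) beside 0.75 for Mvk. The centrin gene Cetn2 starts 145 bases from Nsdhl, also head to head, and both rose (0.36 and 0.62). Lacc1 and Ccdc122 overlap at their starts and both rose (0.68 and 0.64). Insig1 and the predicted gene Gm26608, 257 bases apart and head to head, changed in opposite directions (1.03 and -0.93). Of the 12 fits that left out 1 mouse, 9 lost the call of Cetn2, 10 that of Ccdc122, 9 that of Gm26608 and 8 that of Insig1.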
